A study of Mus musculus with 8 samples.

Results

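The 10 genes described here encode the enzymes, and one partner protein, that macrophages use to make prostaglandins, thromboxane and leukotrienes: Pla2g4a, Ptgs1, Ptgs2, Ptges, Ptges2, Tbxas1, Alox5, Alox5ap, Lta4h and Ltc4s. They were taken by gene symbol from a table of 55487 mouse genes, and each symbol matched 1 gene. RNA was sequenced from J774A.1 cells, a macrophage line grown from a tumor of a BALB/c mouse. All cells received LPS (1 μg/mL), the bacterial cell wall component that activates macrophages, for 24 h, in 4 libraries labelled LPS and in 4 labelled LPS + UDCA that also received the bile acid ursodeoxycholic acid (UDCA, 1 mM). None of the libraries of the series came from cells without LPS, so every comparison is between levels under LPS, in a single cell line. Values are TPM, a relative transcript level that is divided by gene length and can be compared between genes.

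Eicosanoids are short-lived lipid signals made from arachidonic acid. Cytosolic phospholipase A2 cuts arachidonic acid out of membrane phospholipids, and from there the pathway divides. In the prostanoid arm, the cyclooxygenases PTGS1 and PTGS2 make prostaglandin H2, which terminal synthases turn into prostaglandin E2, thromboxane A2 and others. In the leukotriene arm, 5-lipoxygenase, with its membrane partner FLAP, makes leukotriene A4, which LTA4H turns into leukotriene B4, a neutrophil attractant, and LTC4S turns into leukotriene C4, the parent of the cysteinyl leukotrienes. LPS is a classic inducer of Ptgs2 in macrophages.

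With UDCA, the leukotriene arm was lower at each of its 4 genes, the prostanoid arm was lower at 3 genes and higher at 1, and the phospholipase that feeds both was higher. Alox5 and Alox5ap were lower by 2.88-fold and 2.80-fold in mean TPM, Lta4h by 2.09-fold and Ltc4s by 1.56-fold. Ptgs1 was lower by 6.52-fold at a low level (11.25-fold without LPS + UDCA replicate 2), and Ptgs2, the most abundant of the 10 genes, by 1.61-fold. Pla2g4a was higher by 1.78-fold. Of the 10 genes, 9 reached the mean of 1 TPM that the test required, and Tbxas1 did not. The test was limma on log2(TPM + 1) with a false discovery rate (FDR) over the 11796 genes tested, and a gene is called up or down here where the FDR was under 0.05 and the fold change at least 2. By this rule 4 of the 9 tested genes were down, Ptgs1, Alox5, Alox5ap and Lta4h, and 0 were up, where 8.44% of all genes tested were down and 8.71% up. All 9 had an FDR under 0.05, 7 lower and 2 higher, but 72.5% of all genes tested did too (32.3% lower and 40.2% higher), so that share alone does not set these genes apart. The same 7 and 2 genes were those whose libraries did not overlap between the groups, which held for 29.9% of all genes tested on the lower side and 37.0% on the higher side. The median log2 fold change of the 9 genes was -0.68, beside 0.08 over all genes tested. Ptgs1 passed the filter through its LPS libraries alone, since its mean with UDCA was under 1 TPM.

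**Figure D1:**
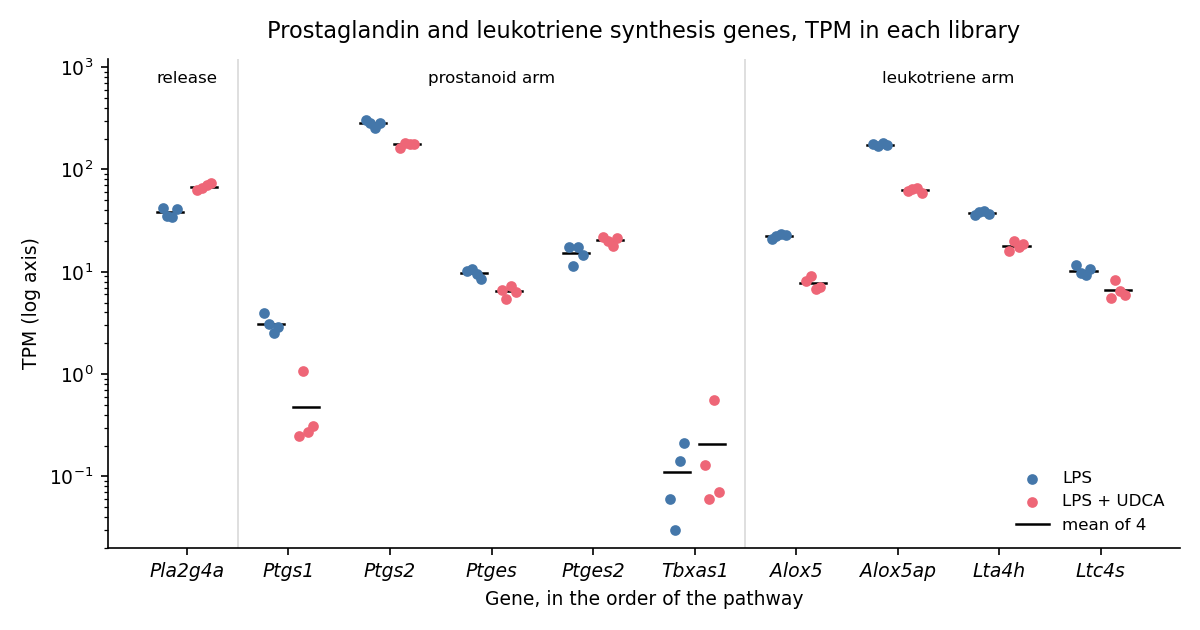
TPM on a log axis for the 10 genes in pathway order, with a point for each library (blue for LPS, red for LPS + UDCA, replicates 1 to 4 from left to right) and a bar at the mean of the 4 libraries. The groups overlap for Tbxas1 alone, and Ptgs1 spans 0.25 to 1.08 TPM with UDCA.

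Each library has a column of its own, with a sum between 958918 and 977485 TPM. Read totals cannot be recovered from TPM, so the depth is unknown, and errors are SDs over libraries. The labels do not say that the libraries came from separate cultures. The p-values judge the group difference against the variation among libraries of a group, and that variation may be technical. In bulk RNA, fewer cells of a kind and less RNA per cell cannot be told apart. Of 8 macrophage markers, 7 were tested, and Lyz2, Cd68, Csf1r and Itgam were down and Adgre1 and Fcgr1 up. Ptprc was higher but under the fold of 2 (log2 fold change 0.47, FDR 0.0041 from limma), and Mertk was listed at 0 in all libraries. The summed TPM of the 8 markers was 2799.29 to 2977.3 with LPS and 916 to 999 with UDCA, lower as the leukotriene genes were. Lyz2 was the largest part of this sum, with means of 1988 TPM with LPS and 436 TPM with UDCA. The sum therefore does not stand for the list, whose genes differed in direction. Its part in the difference of the leukotriene genes was not tested. All markers of mast cells, platelets, fibroblasts, epithelium and lymphocytes stayed under 1 TPM, with the mast cell genes Kit, Cpa3, Fcer1a, Tpsb2 and Mcpt4 and the T cell gene Cd3e at 0. Of the 7 neutrophil markers, Ly6g, Elane and Camp were at 0 in all libraries, and S100a8 and S100a9, which activated macrophages also express, were down (summed TPM of the 7 markers 18.6 to 25.4 with LPS and 2.72 to 9.03 with UDCA).

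Ptgs2 and Pla2g4a are neighbors, and their promoter windows are shown because these adjacent genes differed in opposite directions, together with those of Alox5 and Lta4h, which were both down. Each window runs from 250 bases before to 50 bases after the gene start in RefSeq (GRCm38.p6). The windows lie at chr1:150099781-150100080 on the plus strand for Ptgs2, chr1:149961241-149961540 on the minus strand for Pla2g4a, chr6:116461129-116461428 on the minus strand for Alox5 and chr10:93453146-93453445 on the plus strand for Lta4h. Capitals mark matches, on either strand, to the cyclic AMP response element core TGACGT, the E-box CACGTG, the C/EBP motif TTGCNNAA, an NF-κB motif (GGG, any 2 letters, then TTTCC), the AP-1 motif TGANTCA, the GC box GGGCGG and the TATA box TATAAA.
Ptgs2: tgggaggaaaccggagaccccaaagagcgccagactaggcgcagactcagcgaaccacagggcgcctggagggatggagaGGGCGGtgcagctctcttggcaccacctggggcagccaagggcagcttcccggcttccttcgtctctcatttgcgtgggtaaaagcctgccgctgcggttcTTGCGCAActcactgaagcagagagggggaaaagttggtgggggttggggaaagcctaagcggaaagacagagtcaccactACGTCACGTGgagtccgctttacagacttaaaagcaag
Pla2g4a: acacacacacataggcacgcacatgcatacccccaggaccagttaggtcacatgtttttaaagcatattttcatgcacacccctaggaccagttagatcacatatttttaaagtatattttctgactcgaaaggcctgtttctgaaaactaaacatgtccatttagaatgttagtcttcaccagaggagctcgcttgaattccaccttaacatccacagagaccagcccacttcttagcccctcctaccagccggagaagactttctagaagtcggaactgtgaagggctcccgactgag
Alox5: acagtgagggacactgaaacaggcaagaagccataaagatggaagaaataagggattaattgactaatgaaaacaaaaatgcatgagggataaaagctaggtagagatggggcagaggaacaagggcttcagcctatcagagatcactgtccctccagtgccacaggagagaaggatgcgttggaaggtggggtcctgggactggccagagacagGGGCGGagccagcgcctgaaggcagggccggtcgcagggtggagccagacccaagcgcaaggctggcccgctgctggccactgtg
Lta4h: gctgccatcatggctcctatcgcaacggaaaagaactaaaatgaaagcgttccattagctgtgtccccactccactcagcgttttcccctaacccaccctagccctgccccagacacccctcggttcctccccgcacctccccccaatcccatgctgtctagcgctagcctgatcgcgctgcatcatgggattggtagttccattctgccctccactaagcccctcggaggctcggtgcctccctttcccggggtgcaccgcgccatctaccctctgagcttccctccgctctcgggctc

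Within these windows, Ptgs2 alone among the 9 genes with a window matched TGACGT, which 7.51% of all 32851 windows hold, and it alone matched TTGCNNAA (10.8% of all windows). Its TGACGT match, read as ACGTCA on the printed strand, starts at position 13, with the annotated start as position 1, and shares 2 letters with a CACGTG match, and its TTGCNNAA match starts at position -69 relative to that start. CACGTG was also found for Ptges2 (7.15% of all windows), and GGGCGG for Ptgs2, Ptges and Alox5 (35.7% of all windows). Sequence further than 250 bases before a start was not searched. Within the windows, none of the 9 matched the NF-κB motif, which 1.63% of all windows hold. A wider form of it (GGG, any 5 letters, then CC, not capitalized above) matched 5 of the 9, Ptgs1, Ptgs2, Ptges, Alox5 and Lta4h, but it also matches 50.8% of all windows, and the narrower form was chosen after that was seen. TGANTCA matched Tbxas1 alone (7.81% of all windows). TATAAA matched Tbxas1 and a second, downstream start of Pla2g4a (13.6% of all windows). The windows of Tbxas1 (chr6:38918736-38919035) and Ptges (chr2:30903248-30903547) lie well inside the gene spans given below. They therefore belong to RefSeq starts downstream of the outermost start of each span. The Pla2g4a window printed above holds none of these motifs. By base composition, the windows of Ptgs2, Lta4h and Ptges2 held 16, 16 and 18 CpG dinucleotides and those of the other 6 genes (the printed window for Pla2g4a) 4 to 10, beside a median of 7 over all windows. A window for Alox5ap was not used here. A match describes letters and does not show that a factor binds.

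Pla2g4a, on chromosome 1 from 149829618 to 149961290 (GENCODE M21 on GRCm38, the build of all gene positions given here), encodes cytosolic phospholipase A2α, the enzyme that supplies arachidonic acid to both arms. It was at 41.73, 34.97, 34.43 and 41.46 TPM in replicates 1 to 4 of LPS, the order in which all values are given, and at 62.32, 65.33, 70.19 and 73.11 TPM in those of LPS + UDCA. Every UDCA library lay above every LPS library. The log2 fold change was 0.82 (standard error 0.080, 95% interval 0.63 to 1.00, FDR 1.5e-05 from limma), under the fold of 2 that a call required.

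The cyclooxygenase that LPS induces, Ptgs2, on chromosome 1 from 150100031 to 150108227, had the highest level of the 10 genes in both groups. Its LPS libraries were at 307.76, 285.4, 256.09 and 283.69 TPM and its UDCA libraries at 163.47, 182.64, 178.12 and 178.33 TPM. The groups lay apart, with means of 283 TPM (SD 21.2) and 176 TPM (SD 8.38) over 4 libraries each. The log2 fold change of -0.68 (standard error 0.058, FDR 5.7e-06 from limma) did not reach the fold of 2, and its 95% interval, -0.82 to -0.55, stayed short of it.
Ptgs1, on chromosome 2 from 36230426 to 36252272, encodes the cyclooxygenase that many cells make without a stimulus. It was much rarer than Ptgs2, at 3.94, 3.11, 2.54 and 2.86 TPM with LPS and at 0.25, 1.08, 0.27 and 0.31 TPM with UDCA. The groups did not overlap, but UDCA replicate 2 stood well above the other 3 UDCA libraries. The log2 fold change on log2(TPM + 1) was -1.50 (standard error 0.19, FDR 9.1e-05 from limma) and -1.68 without that library. The pseudocount of 1 compresses such low values, and the log2 ratio of the mean TPM was -2.70. Ptgs1 overlaps the minus-strand gene Gm43621, and the sources used here do not say whether reads were counted by strand.

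Among the terminal synthases of the prostanoid arm, the 2 prostaglandin E synthases chosen as members moved apart. Ptges3, a further one by name, is given below with the other prostanoid enzymes. Ptges, on chromosome 2 from 30889471 to 30929863, encodes the microsomal enzyme that is induced together with PTGS2, and it was at 10.21, 10.64, 9.55 and 8.41 TPM with LPS and at 6.63, 5.39, 7.32 and 6.36 TPM with UDCA. Every UDCA library was below every LPS library (log2 fold change -0.53, standard error 0.10, FDR 0.0011 from limma). Ptges2, on chromosome 2 from 32395896 to 32405772, encodes a second membrane-associated prostaglandin E synthase, and it was at 17.56, 11.27, 17.3 and 14.58 TPM with LPS and at 21.75, 20.11, 18.03 and 21.47 TPM with UDCA. Here every UDCA library was above every LPS library, although the closest pair, 17.56 and 18.03 TPM, nearly met (log2 fold change 0.42, standard error 0.13, FDR 0.017 from limma). LPS replicate 2 was the lowest LPS library, and without it the log2 fold change was 0.29 (FDR 0.021 from limma).
Tbxas1, on chromosome 6 from 38875404 to 39084585, encodes thromboxane A synthase. It was close to 0 throughout, at 0.06, 0.03, 0.14 and 0.21 TPM with LPS and at 0.13, 0.06, 0.56 and 0.07 TPM with UDCA. The groups overlapped, and the difference was not detectable at this level (exact permutation test, p = 0.66).

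In the leukotriene arm, Alox5, on chromosome 6 from 116410077 to 116461178, encodes 5-lipoxygenase, which starts leukotriene synthesis. It was at 20.96, 22.31, 23.14 and 22.74 TPM with LPS and at 8.09, 9.0, 6.8 and 7.02 TPM with UDCA. The highest UDCA library lay well under the lowest LPS library, and the log2 fold change was -1.42 (standard error 0.085, FDR 6.4e-07 from limma).
Alox5ap, on chromosome 5 from 149264767 to 149288153, encodes FLAP, the nuclear membrane protein that presents arachidonic acid to 5-lipoxygenase. It was at 177.35, 169.57, 181.53 and 172.14 TPM with LPS and at 61.02, 64.34, 66.22 and 58.41 TPM with UDCA. Libraries of one group lay close together, within an SD of 5.35 and 3.47 TPM, and the log2 fold change of -1.47 had the smallest standard error of the 9 tested genes, 0.046 (FDR 1.4e-08 from limma). It was also the only one of the 4 genes called down whose call held under each alternative tried.
Lta4h, on chromosome 10 from 93453411 to 93484875, encodes leukotriene A4 hydrolase. It was at 36.03, 38.07, 39.57 and 37.02 TPM with LPS and at 15.98, 20.01, 17.41 and 18.58 TPM with UDCA, with the groups far apart. Its log2 fold change, -1.03 (standard error 0.069, FDR 1.3e-06 from limma), was only just past the fold of 2, and without LPS + UDCA replicate 1 it was -0.98 and no longer called.
Ltc4s, on chromosome 11 from 50236461 to 50238616, encodes leukotriene C4 synthase. It was at 11.55, 9.7, 9.24 and 10.6 TPM with LPS and at 5.5, 8.38, 6.5 and 5.92 TPM with UDCA. The groups did not overlap, but UDCA replicate 2 came near the lowest LPS library, and the log2 fold change was -0.58 (standard error 0.12, FDR 0.0018 from limma). Of the 31-base words of its transcripts, 19.5% also occur in another gene, the largest share among the 10 genes, and it overlaps Gm26542 on the opposite strand. The share of such words was 9.45% for Alox5ap, whose locus also holds Gm19719 and the 5S rRNA gene n-R5s180 on the opposite strand, and at most 3.26% for each of the other 8 genes.
When the 10 genes were compared one at a time by exact permutation, the 9 tested genes each had p = 0.029 (Benjamini-Hochberg adjusted over the 10 genes, 0.032). This is the smallest p that the 70 ways to divide 8 libraries allow. Any gene whose groups do not overlap has it, so it restates the lack of overlap given above. Of all genes tested, 37.0% were apart on the higher side and 29.9% on the lower side.
The libraries of a group varied least for Alox5ap with LPS and for Ptgs2 with UDCA, with SDs of 3.05% and 4.77% of the mean. Ptgs1 was the exception among the 9, with an SD of 84.3% of the mean over the UDCA libraries, where the other 8 had 4.77% to 19.3%.

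**Figure D2:**
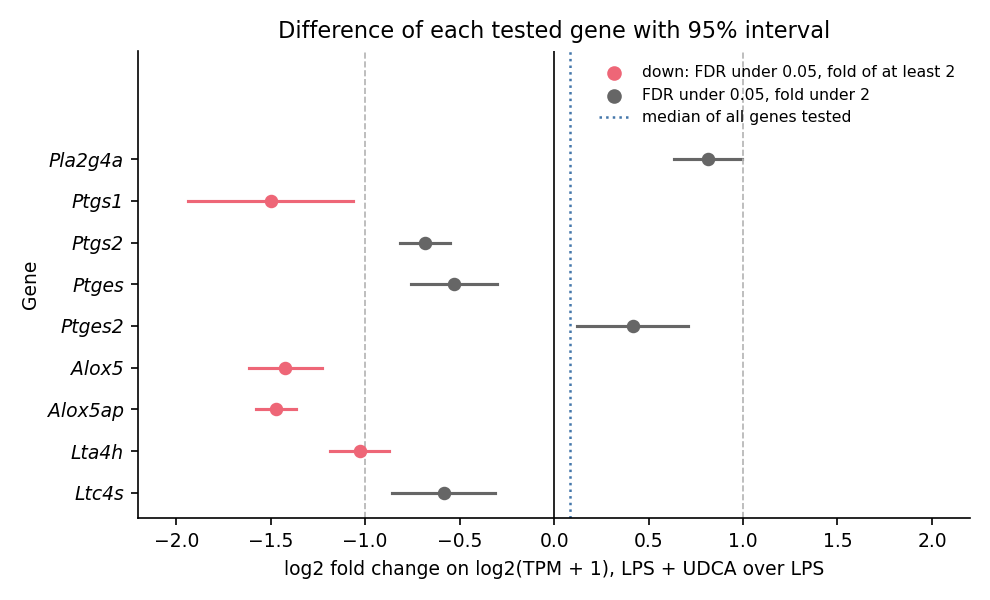
Log2 fold change on log2(TPM + 1), LPS + UDCA over LPS, for the 9 tested genes, with bars for the 95% interval from limma, dashed lines at a fold of 2 in either direction and a dotted line at the median of all genes tested, 0.08. Red marks the 4 genes called down, and Alox5ap has the narrowest interval, -1.58 to -1.37.

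The order of the levels differed between the groups. With LPS it ran from Ptgs2 (283 TPM) and Alox5ap (175 TPM) to Pla2g4a (38.1 TPM) and Lta4h (37.7 TPM), Alox5 (22.3 TPM), Ptges2 (15.2 TPM), Ltc4s (10.3 TPM), Ptges (9.70 TPM), Ptgs1 (3.11 TPM) and Tbxas1 (0.11 TPM). In that order, Pla2g4a and Lta4h, Ptges2 and Ltc4s, and Ltc4s and Ptges had overlapping libraries. With UDCA, Pla2g4a (67.7 TPM) stood level with Alox5ap (62.5 TPM), and Ptges2 (20.3 TPM) with Lta4h (18.0 TPM), each pair with overlapping libraries. Alox5 (7.73 TPM), Ltc4s (6.58 TPM) and Ptges (6.43 TPM) followed with overlapping neighbors, and Ptgs1 (0.48 TPM) overlapped Tbxas1 (0.21 TPM).

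Ratios of TPM within a library do not depend on how the library was scaled, and 5 were compared for members that share a step or a substrate. The ratio of Ptgs2 to Ptgs1 was 78.1, 91.8, 101 and 99.2 in the LPS libraries and 654, 169, 660 and 575 in the UDCA libraries. The UDCA ratios divide by Ptgs1 at 0.25, 1.08, 0.27 and 0.31 TPM. Values so near 0, at an unknown depth, leave the size of these ratios poorly determined. Every UDCA library had the higher ratio (exact permutation test, p = 0.029, Benjamini-Hochberg adjusted over the 5 ratios 0.071), and UDCA replicate 2 again stood closest to the LPS libraries. For Ptges over Ptges2 the ratio was 0.581, 0.944, 0.552 and 0.577 with LPS and 0.305, 0.268, 0.406 and 0.296 with UDCA. Each UDCA library had the lower ratio (exact permutation test, p = 0.029, adjusted 0.071). Neither ratio passed after adjustment, but 0.029 is the smallest p that this test allows with 4 libraries per group. With only 2 of the 5 ratios at that p, the adjustment cannot give a value under 0.05. The ratio of Ltc4s to Lta4h, the enzymes that compete for leukotriene A4, was 0.321, 0.255, 0.234 and 0.286 with LPS and 0.344, 0.419, 0.373 and 0.319 with UDCA. Here the groups overlapped by a single library on each side (exact permutation test, p = 0.057, adjusted 0.095). Alox5ap exceeded Alox5 by 7.57-fold to 8.46-fold with LPS and by 7.15-fold to 9.74-fold with UDCA, and no difference was detected (exact permutation test, p = 0.77, adjusted 0.77). Tbxas1 over Ptges rested on values of Tbxas1 under 1 TPM and did not differ detectably (exact permutation test, p = 0.29, adjusted 0.36).

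**Figure D3:**
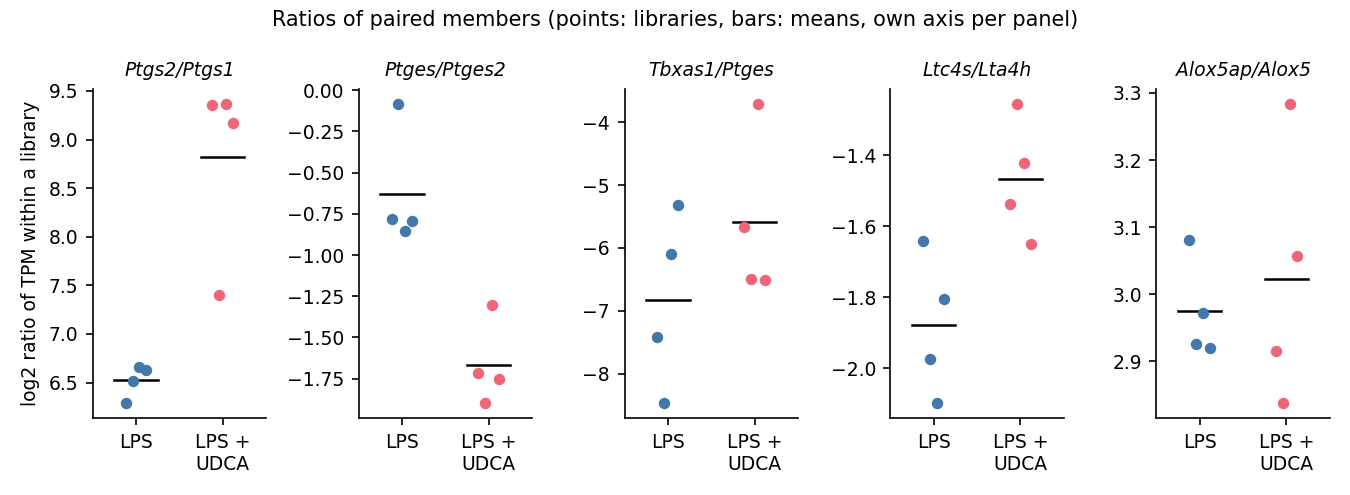
Log2 ratio of TPM within each library for 5 pairs of genes, with points for the 4 LPS (blue) and 4 LPS + UDCA (red) libraries, bars at the means and a separate axis in each panel. The groups lie apart for Ptgs2/Ptgs1 and Ptges/Ptges2 and overlap in the other 3 panels.

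On chromosome 1, the starts of Pla2g4a and Ptgs2 lie 138741 bases apart, on opposite strands that point away from each other. Between them the annotation places only Ptgs2os, a noncoding gene on the opposite strand that starts 68 bases from Ptgs2, and the pseudogene Gm19136 and microRNA gene Gm44329, both listed at 0. Ptgs2os was at 0.24, 0.57, 0.39 and 0.51 TPM with LPS and at 0.11, 0.05, 0.26 and 0.13 TPM with UDCA, too low to be tested, and its groups overlapped. Ptgs2os2, a long noncoding RNA gene 64917 bases beyond the start of Ptgs2, was at 4.82, 4.78, 4.55 and 5.18 TPM with LPS and at 1.72, 1.64, 2.2 and 1.38 TPM with UDCA. It was down with a log2 fold change of -1.10 (standard error 0.11, FDR 1.6e-05 from limma). The next genes on that side with at least 1 TPM were higher with UDCA. Odr4 was called up (log2 fold change 1.48, FDR 7.9e-06 from limma), and Tpr, a nuclear pore gene, had a log2 fold change of 0.58 (FDR 4.2e-04 from limma).

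**Figure D4:**
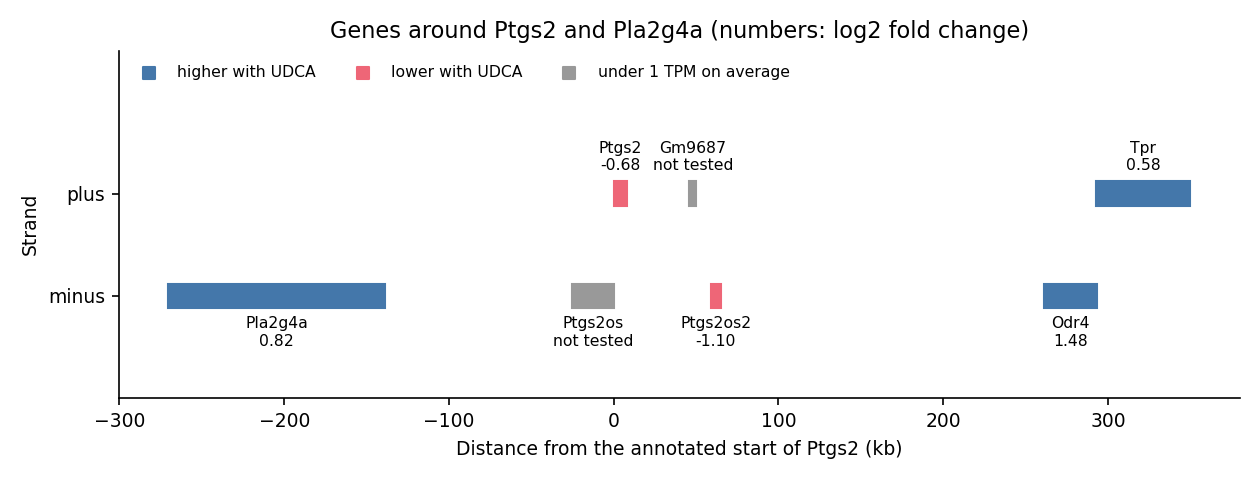
Genes on each strand by distance in kb from the annotated start of Ptgs2, limited to those that reached 0.2 TPM in a library, colored by the direction of the log2 fold change printed beside each. Ptgs2 and Ptgs2os2 are lower with UDCA, and Pla2g4a, Odr4 and Tpr are higher.

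The rest of the pathway was followed in 5 lists, 77 symbols in all, of which 75 were found and 39 genes were tested. Dpep2 counts as 2 of these 39, under 2 identifiers. Across these lists 6 of the 39 genes were down and 1 up, where 8.44% of all genes tested were down and 8.71% up. Of the 6, Ltb4r1 and Cyp4f18 passed the filter through the LPS libraries alone. With a mean of at least 5 TPM required, 4 list genes were down and 1 up, beside 742 down and 683 up of 8907 genes tested. At an FDR under 0.05, 19 were lower and 9 higher, beside 32.3% and 40.2% of all genes tested, and the median log2 fold change was -0.29, beside 0.08 over all genes tested.
Of 15 tested genes that release or re-esterify arachidonic acid, 1 was down and 0 were up, beside 8.44% down and 8.71% up of all genes tested. At an FDR under 0.05, 4 were higher and 7 lower (median log2 fold change -0.24), beside 40.2% higher and 32.3% lower of all genes tested. Pla2g5, which encodes the secreted group V phospholipase A2, was at 15.8, 25.4, 18.88 and 19.85 TPM with LPS and at 10.12, 7.43, 6.94 and 7.06 TPM with UDCA. Its log2 fold change of -1.23 (FDR 6.4e-05 from limma) was opposite in sign to that of Pla2g4a, the cytosolic enzyme. Anxa1, the most abundant gene of the list, encodes annexin A1, an inhibitor of phospholipase A2. It was at 81.48, 85.66, 89.64 and 91.39 TPM with LPS and at 123.97, 124.32, 135.19 and 132.67 TPM with UDCA, apart between the groups but under the fold of 2 (log2 fold change 0.56, FDR 6.2e-06 from limma).
Among the other prostanoid enzymes, 1 of 4 tested genes was down and 0 were up, with 1 higher and 3 lower at an FDR under 0.05 (median -0.50), beside 8.44% down, 40.2% higher and 32.3% lower of all genes tested. The gene called down was Hpgds, hematopoietic prostaglandin D synthase, at 13.51, 16.59, 7.83 and 9.84 TPM with LPS and at 2.8, 2.43, 1.34 and 2.29 TPM with UDCA. Its LPS libraries were widely spread but lay above every UDCA library (log2 fold change -1.98, standard error 0.23, FDR 4.2e-05 from limma). The 1 higher gene was Ptges3, by name a further prostaglandin E synthase and more abundant than Ptges and Ptges2. Its means were 112 TPM (SD 3.80) with LPS and 196 TPM (SD 19.3) with UDCA, and the groups lay apart. The log2 fold change of 0.79 (FDR 4.5e-06 from limma) was under the fold of 2, and 20.9% of its 31-base words occur in another gene. Akr1b3, an aldo-keto reductase that can make prostaglandin F2α, was the most abundant, with means of 1182 TPM (SD 30.9) and 728 TPM (SD 37.7) without and with UDCA (log2 fold change -0.70, FDR 5.2e-07 from limma), and 15.2% of its 31-base words occur in another gene.
The list of lipoxygenases and cysteinyl leukotriene enzymes had 6 tested entries, and none of them was a lipoxygenase gene. They were Mgst2, Mgst3, Gpx4, Cotl1 and Dpep2 under 2 identifiers. Of the 31-base words of the 2 Dpep2 entries, 41.0% and 92.5% also occur under another identifier. The 2 entries overlap on the minus strand of chromosome 8, and words that they share with each other count in both percentages. Of the 6 entries, 2 were down, 0 were up, and 4 were lower and 0 higher at an FDR under 0.05 (median -0.93). Of all genes tested, 8.44% were down, 32.3% lower and 40.2% higher. Cotl1 encodes coactosin-like protein, an actin-binding protein that also binds 5-lipoxygenase. It was at 178.59, 179.34, 172.5 and 169.03 TPM with LPS and at 69.99, 70.55, 57.17 and 70.78 TPM with UDCA, a log2 fold change of -1.37 (FDR 2.1e-07 from limma) beside -1.42 for Alox5 and -1.47 for Alox5ap. Mgst2, a microsomal glutathione transferase that can make leukotriene C4, was at 50.27, 51.3, 63.44 and 53.71 TPM with LPS and at 22.31, 19.78, 22.6 and 24.72 TPM with UDCA. Its groups lay far apart (log2 fold change -1.25, FDR 1.6e-06 from limma), and with UDCA its mean of 22.4 TPM was still above that of Ltc4s. Gpx4, the most abundant gene of this list, encodes a peroxidase that reduces lipid hydroperoxides and had 317 ± 6.97 and 303 ± 16.7 TPM (log2 fold change -0.07, FDR 0.19 from limma), but 38.9% of its 31-base words occur in another gene.
For breakdown and transport, 1 of 11 tested genes was up and 1 down, with 4 higher and 3 lower at an FDR under 0.05 (median 0.02), shares near the 8.71% up and 8.44% down and no larger than the 40.2% higher and 32.3% lower of all genes tested. Abcc1 encodes a transporter that exports leukotriene C4, besides glutathione conjugates and many other compounds. It was at 63.67, 60.17, 55.73 and 61.13 TPM with LPS and at 145.94, 151.27, 143.7 and 142.5 TPM with UDCA, and its libraries did not come near each other (log2 fold change 1.26, FDR 3.2e-08 from limma). Cyp4f18, whose enzyme oxidizes leukotriene B4, was down from 2.57 ± 0.20 to 0.638 ± 0.21 TPM (log2 fold change -1.13, FDR 3.8e-05 from limma). Hpgd, the dehydrogenase that inactivates prostaglandins, was listed at 0 in all 8 libraries.
Of 13 receptor genes, 3 reached 1 TPM on average, and 1 was down, beside 8.44% of all genes tested. Ltb4r1, the high-affinity receptor for leukotriene B4, was at 3.1, 2.39, 2.19 and 2.51 TPM with LPS and at 0.23, 0.05, 0.32 and 0.11 TPM with UDCA. The groups lay far apart at a low level (log2 fold change -1.59, FDR 7.0e-06 from limma). Ptgir, the prostacyclin receptor, was the most abundant, at 11.9 ± 0.729 and 12.4 ± 1.49 TPM (log2 fold change 0.06, FDR 0.56 from limma). Ptger4, a prostaglandin E2 receptor, was at 1.81 ± 0.152 and 0.795 ± 0.0961 TPM (log2 fold change -0.65, FDR 6.1e-04 from limma), and 15.2% of its 31-base words occur in another gene. Ltb4r1, Cyp4f18 and Ptger4 passed the filter on low values through the LPS libraries alone.
Of the 37 genes of these lists under 1 TPM on average, which were not tested, 23 were above 0 in a library. The groups lay apart for 4 of these on the higher side and 2 on the lower side, beside 8.42% and 3.68% of all 11933 genes with a mean above 0 and under 1 TPM.

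**Figure D5:**
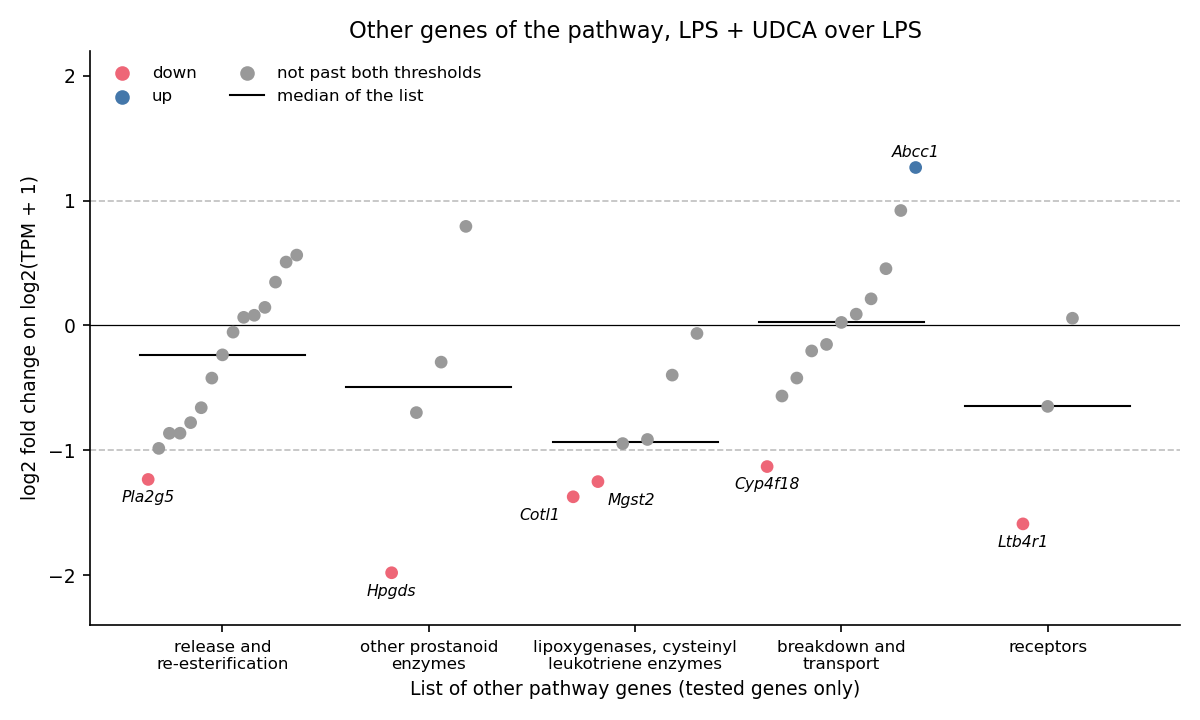
Log2 fold change on log2(TPM + 1), LPS + UDCA over LPS, for the 39 tested genes of 5 lists, each a point, with bars at the list medians and dashed lines at a fold of 2. Named are the 6 genes called down (red) and Abcc1, the 1 gene called up (blue).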

How the data were processed

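RNA of 8 J774A.1 libraries was sequenced (Illumina TruSeq kit and HiSeq instrument). The submitters' processing notes name Bowtie 0.12.2 and the builds mm10 and GRCm38. The counting program and the annotation version are not given in the sources used here. The authors deposited TPM per gene, kept to 2 decimals, with one column per library. A column of another sample was not found.

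Libraries were grouped by the treatment label. Genes averaging 1 TPM or more over the 8 libraries (11796) entered limma 3.58.1 (R 4.3.3) as log2(TPM + 1), with the moderated variance trended on the mean level and the Benjamini-Hochberg FDR taken over all of them. Both thresholds, 2 for the fold change and 0.05 for the FDR, come from the study's methods, whose section on the sequencing names no test. The calls are not those of the study. The fit called 1028 genes up and 995 down, and the study reported more in each direction, with more down than up. The general ANOVA of that study was not used here. Fold changes on this scale understate those of low genes. Single values were compared by an exact permutation test, 2-sided. The fit was tested on simulated data. Python 3.11.15 and pandas 2.3.3 were used for the other steps.

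The members and lists were chosen with earlier results of these data known. Named were all 10 members and, from each list of other pathway genes, those called and the most abundant. Ptger4, Hpgd, Ptges3, Mgst3, Dpep2, the neighbors of Ptgs2 and the genes under 1 TPM in the closing section were added after their values were seen. The list gene Gpx4 shares many words of 31 bases with other genes. For Dpep2, words shared between its own 2 identifiers were counted as well. Positions and words are from GENCODE M21 and promoter windows from RefSeq. Alternatives covered normalization, filter, pseudocount, variance trend, thresholds, a replicate block and each library left out.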

Additional observations from a re-analysis of the deposited data

Results flagged for a closer look

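Dixon's test, which asks if the highest or lowest of 4 libraries lies too far from its nearest neighbor for the range of its group, was applied at the 95% level to 30 groups of values, the 10 genes and 5 ratios in both treatments. Of these, 4 passed, where chance gives 1.5. The 4 are not independent, since a ratio shares its values with its genes.
For Ptgs1, LPS + UDCA replicate 2 was highest, at 1.08 TPM, with the nearest other library at 0.31 TPM (gap over range 0.928). The log2 ratio of Ptgs2 to Ptgs1 was lowest in that library, at 7.40, with the nearest other at 9.17 (gap over range 0.899). Among all genes called down, LPS + UDCA replicate 2 was the highest of its group in 40.4%, and the other 3 UDCA libraries in 19.7% to 21.5%. Among all genes called up, it was the lowest of its group in 29.4% and LPS + UDCA replicate 1 in 41.4%. Its part in the value of Ptgs1 was not tested.
For Tbxas1, LPS + UDCA replicate 3 was highest, at 0.56 TPM, with the nearest other library at 0.13 TPM (gap over range 0.86). The log2 ratio of Ptges to Ptges2 was highest in LPS replicate 2, at -0.083, with the nearest other at -0.78 (gap over range 0.903). That library had the lowest Ptges2 of its group, 11.27 TPM.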

How the results depend on the processing

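Each of the 9 tested genes kept the sign of its log2 fold change and an FDR under 0.05 under each alternative in which it was tested, with FDR values up to 0.044 (Ptges2, without LPS + UDCA replicate 1). With a mean of at least 5 TPM required, Ptgs1 was not tested and 683 genes were up. With a pseudocount of 10, which compresses low values, 175 genes were up and 329 down, 1 of the members (Alox5ap) and 1 of the other pathway genes (Cotl1) were down, and the log2 fold change was -0.32 for Ptgs1, -0.87 for Alox5 and -0.77 for Lta4h. With a pseudocount of 0.1 that of Ptgs1 was -2.66. With no fold change minimum, 4741 genes were up and 3807 down, of the members 2 and 7, and of the other pathway genes 9 and 19. Leaving out each library in turn gave 971 to 1130 genes up and 964 to 1031 down, 3 to 4 members down and 6 to 8 other pathway genes down. Without LPS + UDCA replicate 1 the call of Lta4h was lost. The other alternatives, normalization among them, ended no call of a member. Normalization did change the balance over all genes tested, which was 1028 up and 995 down in the main fit. With median-of-ratios scaling 857 genes were up and 1121 down, and with quantile normalization 874 and 1088.

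The groups share replicate numbers. After centring on the group means, same-numbered libraries had correlations from -0.035 to 0.15 (mean 0.088). Libraries with different numbers had -0.14 to 0.16 (mean -0.029). Of the 4 LPS libraries, 2 correlated best with their own number. So few correlations cannot decide whether the numbers mark pairs. The main fit did not take them as pairs, and a replicate block was tried as an alternative. With the replicate number as a block, 2034 genes were called, 2020 of them also without it, and no call of a member changed. For the ratios, the block left the log2 differences at 2.30 (Ptgs2/Ptgs1) and -1.04 (Ptges/Ptges2), with an exact sign permutation p of 0.125, the smallest that 4 pairs allow.

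With each library left out, the log2 difference ranged from 2.12 to 2.77 for Ptgs2/Ptgs1 (exact permutation p up to 0.057), from -1.16 to -0.86 for Ptges/Ptges2, from 0.34 to 0.49 for Ltc4s/Lta4h (p = 0.029 without LPS replicate 1) and from -0.038 to 0.11 for Alox5ap/Alox5, which turned negative without LPS + UDCA replicate 3. The cause of these changes was not tested. Depth is unknown, which limits what can be said of Tbxas1, Ptgs1 and other genes near 0.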

Other observations

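Of the 5 lists, 37 genes were under 1 TPM on average and were not tested, and 14 of these were listed at 0 in all 8 libraries, among them Ptgds, Hpgd, Pla2g7, Mgll, Ephx2 and the receptor genes Ptger3, Ptgdr, Ptgfr and Cysltr2. A listed 0 is not proof of no expression. Of the 23 above 0, the groups lay apart for 4 on the higher side (Ptgis, Alox8, Ggt1, Ptger1) and 2 on the lower side (Pla2g4c, Cysltr1). The 3 described here were chosen after their values were seen. Alox8, which encodes a lipoxygenase that oxidizes arachidonic acid, was at 0.1, 0.09, 0.02 and 0.08 TPM with LPS and at 0.62, 0.66, 0.66 and 0.82 TPM with UDCA, so it was higher in each UDCA library while Alox5 was lower. Ggt1, which encodes a transpeptidase that can convert leukotriene C4 to leukotriene D4, was at 0.12, 0, 0.08 and 0 TPM with LPS and at 0.54, 0.35, 0.81 and 0.94 TPM with UDCA. Cysltr1, a receptor for cysteinyl leukotrienes, was at 0.39, 0.14, 0.33 and 0.22 TPM with LPS and at 0.07, 0.04, 0.05 and 0.06 TPM with UDCA. In a fit of all genes with a mean above 0 TPM, the FDR from limma was 2.1e-05 for Alox8, 0.0020 for Ggt1 and 0.0083 for Cysltr1, with log2 fold changes on log2(TPM + 1) of 0.66, 0.65 and -0.26.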
